A study of Arabidopsis thaliana with 9 samples.

Results

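The general phenylpropanoid pathway opens with 3 enzyme steps, and in Arabidopsis thaliana 8 genes of these steps were followed here: the phenylalanine ammonia-lyases PAL1, PAL2, PAL3 and PAL4, the cinnamate hydroxylase C4H, and the coumarate:CoA ligases 4CL1, 4CL2 and 4CL3. They were picked by locus identifier, and all 8 were among the 21176 genes of the deposited table and among the 18650 genes that were tested. Messenger RNA was sequenced from rosette leaves of 5-week-old Col-0 plants grown in water culture. Phase 1 leaves (3 libraries) were taken 2 days after salt, added at 15 mM NaCl per day, had reached 90 mM. Phase 0 leaves (3 libraries) were sampled 1 h after 105 mM NaCl had been given at once, and Control leaves (3 libraries) carry the treatment label control. Dose, duration and mode of salt addition thus all differ between Phase 1 and Phase 0. The labels state neither the hour of harvest nor whether replicates are separate plants, so p-values measure the spread between these libraries, which may be technical.

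Phenylalanine ammonia-lyase removes ammonia from phenylalanine to give cinnamate. C4H, a cytochrome P450, hydroxylates cinnamate to coumarate, and 4CL joins coumarate to coenzyme A. The product, coumaroyl-CoA, is the branch point from which leaves make flavonols and anthocyanins on one side, and lignin monomers and sinapate esters on the other. In Arabidopsis PAL1 and PAL2 carry much of the lyase activity, 4CL1 and 4CL2 have been tied mainly to lignin and 4CL3 to flavonoids.

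Stretches of 300 bases that end just before the annotated transcript start are shown for pairs of genes that behaved differently in these libraries: PAL3 against PAL4, whose coding sequences share 78.9% of aligned bases, and 4CL2 against 4CL3. They are written along the gene's own strand, from RefSeq's TAIR10.1 assembly: PAL3 at chr5:1160269-1160568 on the plus strand, PAL4 at chr3:3203688-3203987 on the plus strand, 4CL2 at chr3:7457405-7457704 on the minus strand and 4CL3 at chr1:24171636-24171935 on the minus strand. Capitals mark matches to the motifs named after them.
PAL3: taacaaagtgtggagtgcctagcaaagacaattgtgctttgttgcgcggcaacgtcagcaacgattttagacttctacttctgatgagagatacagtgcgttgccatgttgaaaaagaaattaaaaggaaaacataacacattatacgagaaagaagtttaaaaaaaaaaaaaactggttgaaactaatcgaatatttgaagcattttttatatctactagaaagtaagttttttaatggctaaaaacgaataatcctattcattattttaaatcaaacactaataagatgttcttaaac
PAL4: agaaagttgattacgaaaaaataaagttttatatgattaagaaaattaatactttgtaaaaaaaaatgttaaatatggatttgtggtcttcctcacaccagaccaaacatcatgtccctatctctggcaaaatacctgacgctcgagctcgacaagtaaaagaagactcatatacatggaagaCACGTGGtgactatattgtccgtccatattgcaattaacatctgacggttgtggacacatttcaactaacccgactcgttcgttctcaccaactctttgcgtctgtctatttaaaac
4CL2: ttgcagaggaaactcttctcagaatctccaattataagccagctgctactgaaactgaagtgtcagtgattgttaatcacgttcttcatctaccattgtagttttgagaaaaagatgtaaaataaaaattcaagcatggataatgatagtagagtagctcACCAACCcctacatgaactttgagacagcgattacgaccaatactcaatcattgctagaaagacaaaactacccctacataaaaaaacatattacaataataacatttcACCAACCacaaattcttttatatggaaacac
4CL3: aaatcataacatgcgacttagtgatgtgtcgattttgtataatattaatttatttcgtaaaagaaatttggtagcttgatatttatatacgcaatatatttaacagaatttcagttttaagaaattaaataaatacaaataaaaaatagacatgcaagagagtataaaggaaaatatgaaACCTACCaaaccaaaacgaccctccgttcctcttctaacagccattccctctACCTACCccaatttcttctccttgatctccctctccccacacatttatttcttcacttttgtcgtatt

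Motifs were searched on both strands in these windows, in those of the other 4 genes and in the windows of 27443 protein-coding genes. The AC elements, known from phenylpropanoid promoters as binding sites of MYB factors, were written as ACCTACC (AC-I), ACCAACC (AC-II) and ACCTAAC (AC-III). AC-I stood at 2 places before 4CL3, with first bases at -120 and -68 from the transcript start, and 1.33% of all windows held it. AC-II stood at 2 places before 4CL2, at -140 and -31, and 3.18% of all windows held it. The 6 other genes had none of the 3 AC elements in this window, as written, and 7.16% of all windows had at least 1. A G-box, CACGTG, stood at -117 before PAL4 and overlapped a match to ACGTGG, the core of the abscisic acid response element, at -116. Of all windows 7.09% held the G-box and 9.13% that core. Neither AAAATATCT, the evening element, nor AAAAATCT, a site of the clock factor CCA1, was found in any of the 8 windows, while 2.79% and 7.94% of all windows held them. A match is a run of letters and says nothing of binding.

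All values are normalised counts, that is read counts which the authors scaled per library and rounded. Library totals ran from 22786946 to 25522714 in Phase 1, 24136851 to 25513236 in Phase 0 and 25801397 to 27820610 in Control. They are totals after scaling, so the sequencing depth behind them is unknown. Adjusted p-values are from limma on log2(value + 1), with Benjamini-Hochberg adjustment over 18650 genes and a threshold of 0.05, and fold changes are on that scale. In Phase 0 replicate 2, 0.605% of the total came from organelle genes, against at most 0.0575% in any other library. The leaf label was set against marker genes. The summed level of 5 mesophyll markers was 996114 to 1133233 in Phase 1, 1192948 to 1259710 in Phase 0 and 1394142 to 1612927 in Control. The 2 root markers in the table summed to at most 20 in any library, and 3 others were absent from the table.

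In Phase 1 leaves 6 of the 8 genes rose against Control, PAL1, PAL4, C4H, 4CL1, 4CL2 and 4CL3, and 1 fell, PAL3. The rises ran from 1.77-fold in 4CL1 to 7.12-fold in 4CL3. In Phase 0 leaves 2 fell, PAL2 and PAL3, and 0 of the 8 rose by limma's test, also at an unadjusted p under 0.05. Between the phases 6 were higher in Phase 1, and PAL3 and 4CL2 did not pass. The share of all tested genes that passed was 2.93% for Phase 0 against Control, where 1.28% were higher and 1.66% lower. It was 36.1% for Phase 1 against Control, where 17.4% were higher and 18.6% lower, and 28.1% for Phase 1 against Phase 0, where 13.7% were higher and 14.4% lower. In the 6 genes higher in Phase 1 than in Phase 0 the values of the phases did not overlap, as in 24.9% of all tested genes, which were higher in every Phase 1 library. The median log2 fold change of the 8 genes was 1.07 in Phase 1 against Control, 0.026 in Phase 0 against Control and 1.12 in Phase 1 against Phase 0. Over all tested genes these medians were 0.0043, 0.010 and -0.0083.

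**Figure D1:**
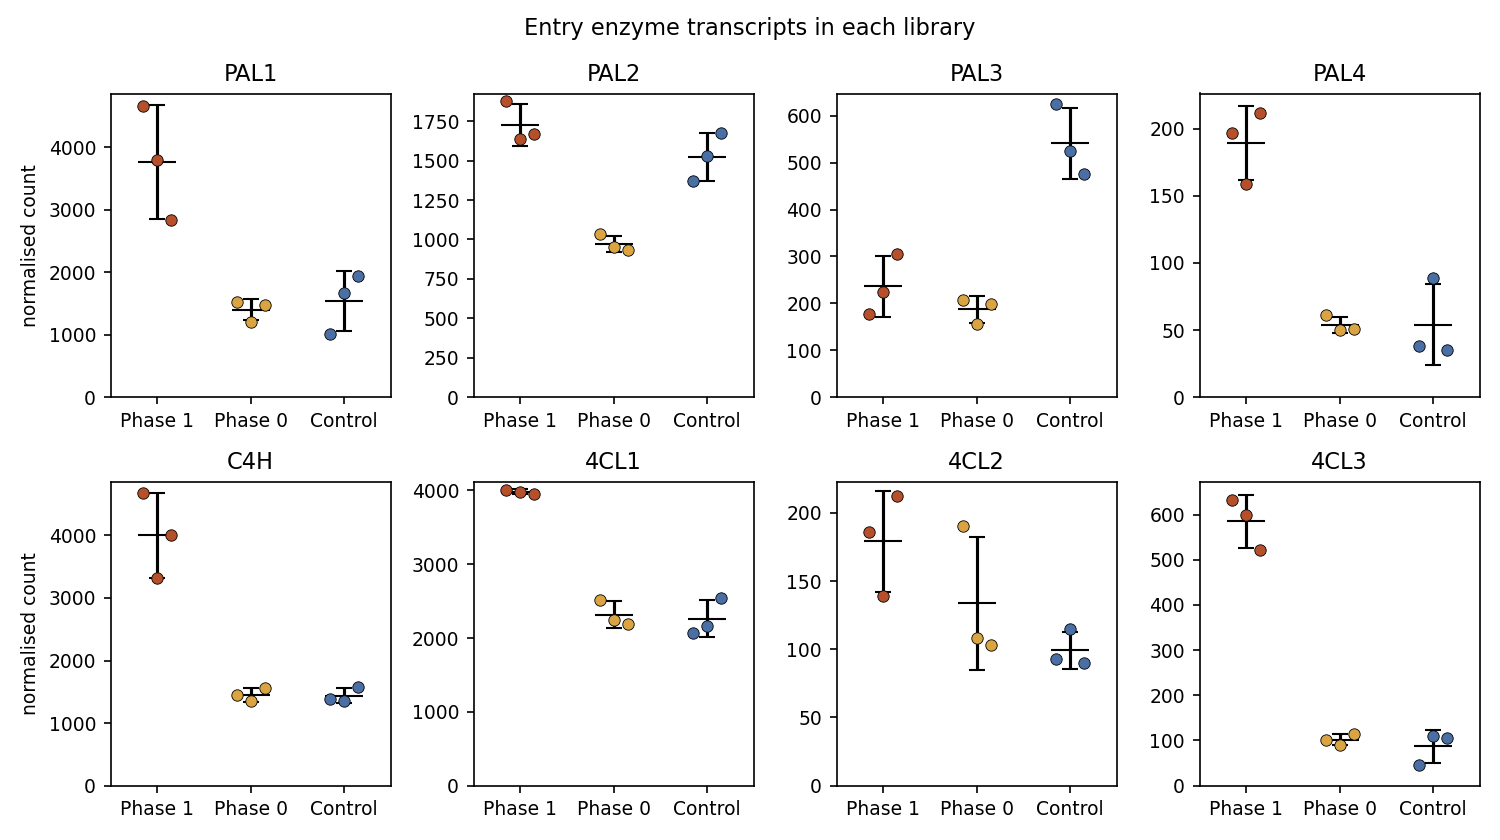
Normalised counts of the 8 genes in each library, with the group mean (horizontal mark) and SD (bars, n = 3), on linear axes that start at 0 and differ between panels. Phase 1 libraries lie above all others in PAL1, PAL4, C4H, 4CL1 and 4CL3, PAL2 is lowest in Phase 0, and PAL3 is highest in Control, at 475 to 624.

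PAL1 (AT2G37040, chr2:15557367-15560755, minus strand, 2 exons) had 4661, 3798 and 2837 normalised counts in Phase 1, 1518, 1203 and 1482 in Phase 0, and 1012, 1662 and 1939 in Control. All Phase 1 libraries were above all the others, while Phase 0 and Control overlapped and Control replicate 1 was the lowest of the 9. PAL1 rose 2.49-fold in Phase 1 against Control (log2 fold change 1.31, SE 0.25, adjusted p = 0.00227) and 2.65-fold against Phase 0 (adjusted p = 0.0020). For Phase 0 against Control the log2 fold change was -0.090 (95% confidence interval -0.63 to 0.45, adjusted p = 0.884).

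PAL2 (AT3G53260, chr3:19744018-19747114, minus strand, 2 exons) is the nearest relative of PAL1, with 84.0% of aligned coding bases shared. It had 1878, 1637 and 1667 normalised counts in Phase 1, 1032, 953 and 931 in Phase 0, and 1369, 1527 and 1675 in Control. Every Phase 0 library lay below every other library, and Phase 1 overlapped Control. PAL2 fell to 972 ± 53.1 in Phase 0, against 1524 ± 153 in Control (SD, n = 3 each; log2 fold change -0.64, SE 0.12, adjusted p = 0.0183). This call ended without Control replicate 3 (adjusted p = 0.084), Phase 0 replicate 2 (adjusted p = 0.0828) or Phase 0 replicate 3 (adjusted p = 0.106). In Phase 1 against Control its log2 fold change was 0.18 (95% confidence interval -0.075 to 0.44, adjusted p = 0.245), and against Phase 0 it rose 1.77-fold (adjusted p = 0.000543).

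PAL3 (AT5G04230, chr5:1160569-1163957, plus strand), the member for which the lowest enzyme activity has been described, had 177, 225 and 306 normalised counts in Phase 1, 208, 155 and 198 in Phase 0, and 624, 524 and 475 in Control. Control libraries were all higher than the 6 salt libraries, and the phases overlapped. PAL3 fell in Phase 1 against Control by 1.22 on the log2 scale (SE 0.21, adjusted p = 0.00147) and in Phase 0 against Control by 1.53 (SE 0.21, adjusted p = 0.00563). Phase 1 and Phase 0 share the same Control libraries in these comparisons. The log2 difference between the phases was 0.31 (95% confidence interval -0.16 to 0.78, adjusted p = 0.307). PAL3 was the 1 member called lower in both salt groups.

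PAL4 (AT3G10340, chr3:3203988-3208135, plus strand) had the lowest mean of the 4 lyases in each group, also per length of transcript, with 197, 159 and 212 normalised counts in Phase 1, 61, 50 and 51 in Phase 0, and 38, 89 and 35 in Control. In Phase 1 replicate 1 it exceeded PAL3, and in the other 8 libraries it lay below it. Phase 1 libraries stood above all others, and Control replicate 2 stood above all 3 Phase 0 libraries. PAL4 rose 3.77-fold in Phase 1 against Control (log2 fold change 1.91, SE 0.32, adjusted p = 0.00124) and 3.45-fold against Phase 0 (adjusted p = 0.00236). In Phase 0 against Control the log2 fold change was 0.13 (95% confidence interval -0.59 to 0.84, adjusted p = 0.872).

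C4H (AT2G30490, chr2:12993625-12996012, minus strand, 3 exons) is the gene of the second step. Its normalised counts were 4683, 3314 and 4007 in Phase 1, 1445, 1347 and 1561 in Phase 0, and 1391, 1352 and 1575 in Control. The Phase 0 and Control ranges nearly coincided, and every Phase 1 library was above both. C4H rose to 4001 ± 685 in Phase 1, against 1439 ± 119 in Control (SD, n = 3 each; 2.76-fold, adjusted p = 4.2e-05), and 2.73-fold against Phase 0 (adjusted p = 4.94e-05). In Phase 0 against Control its log2 fold change was 0.012 (95% confidence interval -0.30 to 0.32, adjusted p = 0.974).

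4CL1 (AT1G51680, chr1:19158746-19161737, minus strand, 4 exons) was the most abundant ligase gene. It had 4013, 3985 and 3949 normalised counts in Phase 1, 2522, 2238 and 2194 in Phase 0, and 2071, 2166 and 2544 in Control. The Phase 1 values lay close together and above all others. 4CL1 rose 1.77-fold in Phase 1 against Control (log2 fold change 0.82, SE 0.11, adjusted p = 0.000384) and 1.72-fold against Phase 0 (adjusted p = 0.00064). For Phase 0 against Control the log2 fold change was 0.039 (95% confidence interval -0.21 to 0.29, adjusted p = 0.891). The annotation places AT1G51670 across part of 4CL1 on the opposite strand, and the strand setting of the counting is not given in the sources used here. AT1G51670 had 21 to 65 normalised counts in Phase 1, 7 to 15 in Phase 0 and 4 to 13 in Control.

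4CL2 (AT3G21240, chr3:7454269-7457404, minus strand), which shares 81.6% of aligned coding bases with 4CL1, was far less abundant. It had 186, 139 and 212 normalised counts in Phase 1, 190, 108 and 103 in Phase 0, and 93, 115 and 90 in Control. Phase 1 libraries were above Control libraries, and Phase 0 replicate 1 lay among those of Phase 1. 4CL2 rose 1.78-fold in Phase 1 against Control (log2 fold change 0.83, SE 0.26, adjusted p = 0.029). This call ended without Control replicate 1 (adjusted p = 0.0604), Control replicate 3 (adjusted p = 0.0817), Phase 1 replicate 1 (adjusted p = 0.0819) or Phase 1 replicate 3 (adjusted p = 0.0989). In Phase 1 against Phase 0 its log2 fold change was 0.45 (95% confidence interval -0.12 to 1.03, adjusted p = 0.218), and without Phase 0 replicate 1 it was 0.74 and passed (adjusted p = 0.0429). The value for Phase 0 against Control was 0.38 (adjusted p = 0.461).

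4CL3 (AT1G65060, chr1:24167202-24171635, minus strand, 7 exons) showed the largest rise of the 8 genes. It had 633, 600 and 521 normalised counts in Phase 1, 102, 90 and 114 in Phase 0, and 45, 111 and 106 in Control. The lowest Phase 1 library stood far above the highest of the other 6, and Control replicate 1 was the lowest of all. 4CL3 rose to 585 ± 57.6 in Phase 1, against 87.3 ± 36.7 in Control (SD, n = 3 each; log2 fold change 2.83, SE 0.30, adjusted p = 7.96e-05), and 5.69-fold against Phase 0 (adjusted p = 0.000197). In Phase 0 against Control the log2 fold change was 0.32 (95% confidence interval -0.34 to 0.99, adjusted p = 0.60). 4CL5 (AT3G21230), the ligase gene outside the 8, had 206 to 310 normalised counts in Phase 1, 175 to 196 in Phase 0 and 118 to 235 in Control, and did not pass in Phase 1 against Control (adjusted p = 0.0811).

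**Figure D2:**
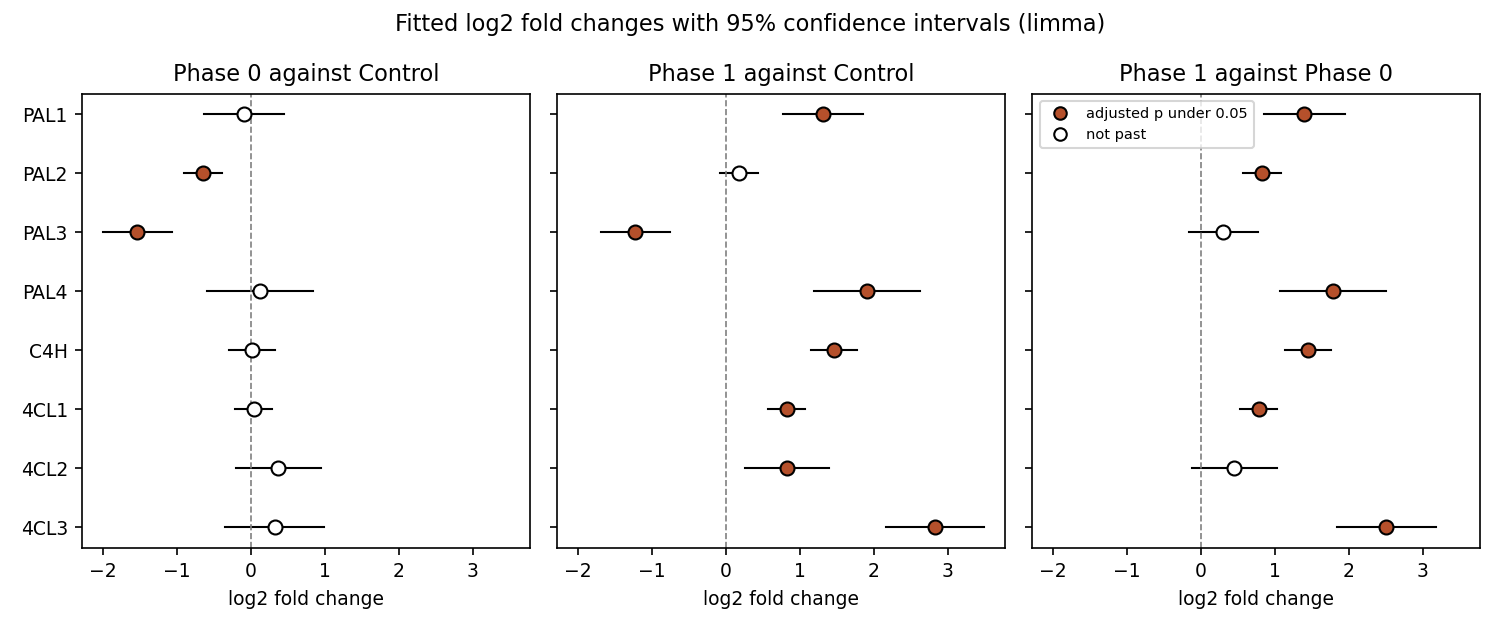
Fitted log2 fold changes of the 8 genes (points) with 95% confidence intervals (lines) for the 3 comparisons, filled where the adjusted p is under 0.05. In Phase 0 against Control the filled points are PAL2 at -0.64 and PAL3 at -1.53, while in Phase 1 against Control 6 filled points lie right of 0 and PAL3 lies left of it at -1.22.

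Reads that fit more than 1 gene could be split between relatives. Of the 75-base stretches of the PAL1 and PAL2 transcripts 0.21% and 0.213% were identical to a stretch of the other gene, and the 6 other transcripts shared none with any annotated transcript. Read length in these libraries was 75 bases.

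Levels of different genes were compared per 1000 bases of transcript. In Phase 1 leaves C4H ranked first with 1921 ± 329 normalised counts per 1000 bases, followed by 4CL1 (1794 ± 14.5), PAL1 (1285 ± 311), PAL2 (598 ± 45.5), 4CL3 (286 ± 28.1), PAL3 (94.97 ± 26.2), 4CL2 (90.0 ± 18.6) and PAL4 (69.6 ± 10.04; SD, n = 3 each). The ranges of C4H and 4CL1 overlapped, as did those of PAL3, 4CL2 and PAL4 with each other. In Phase 0 leaves the order began with 4CL1 (1044 ± 80.2), C4H (697 ± 51.4), PAL1 (478 ± 58.8) and PAL2 (337 ± 18.4), and their ranges did not overlap. Below them PAL3 (75.3 ± 11.3), 4CL2 (67.2 ± 24.6) and 4CL3 (49.8 ± 5.86) overlapped with their neighbours, and PAL4 was last at 19.8 ± 2.23. In Control leaves 4CL1 (1018 ± 113) came first, then C4H (691 ± 57.2), and PAL2 (528 ± 53.0) and PAL1 (525 ± 162) overlapped, while the range of PAL1 also reached into that of C4H. They were followed by PAL3 (218 ± 30.6), 4CL2 (49.9 ± 6.86), 4CL3 (42.7 ± 18.0) and PAL4 (19.8 ± 11.1). 4CL2 overlapped 4CL3, and 4CL3 overlapped PAL4. 4CL3 thus had rank 5 among the 8 genes in Phase 1, and rank 7 in both Phase 0 and Control.

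The make-up of the lyase transcripts was followed in the sum of PAL1 to PAL4. That sum was 6913, 5819 and 5022 normalised counts in Phase 1, 2819, 2361 and 2662 in Phase 0, and 3043, 3802 and 4124 in Control. Phase 1 was above Control in all libraries and Phase 0 below it. PAL1 made up 63.1% ± 5.79 of the sum in Phase 1, 53.5% ± 2.38 in Phase 0 and 41.3% ± 7.18 in Control (SD, n = 3 each), with no overlap between any of the 3 groups. PAL2 made up 29.5% ± 3.24 in Phase 1, 37.3% ± 2.76 in Phase 0 and 41.9% ± 2.66 in Control, where Phase 0 and Control overlapped. PAL3 made up 4.17% ± 1.79 in Phase 1, 7.13% ± 0.488 in Phase 0 and 15.3% ± 4.67 in Control. Control replicate 1 had the highest PAL3 share, 20.5%.

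The ligase sum of 4CL1 to 4CL3 was 4832, 4724 and 4682 normalised counts in Phase 1, 2814, 2436 and 2411 in Phase 0, and 2209, 2392 and 2740 in Control. Phase 1 lay above both other groups, which overlapped. 4CL3 made up 12.3% ± 1.04 of it in Phase 1, 4.02% ± 0.618 in Phase 0 and 3.52% ± 1.34 in Control (SD, n = 3 each). 4CL1 made up 83.9% ± 0.751 in Phase 1, 90.8% ± 1.13 in Phase 0 and 92.4% ± 1.65 in Control. The 2 sums and the shares of PAL1, PAL2 and 4CL3 were tested in all 3 comparisons with two-sided exact permutation tests of 3 against 3 libraries, which cannot give a p below 0.1. That smallest p was reached in 12 of the 15 tests (adjusted p = 0.125). The exceptions were Phase 0 against Control for the ligase sum (exact p = 0.5, adjusted p = 0.536), the PAL2 share (exact p = 0.2, adjusted p = 0.231) and the 4CL3 share (exact p = 0.8, adjusted p = 0.80).

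**Figure D3:**
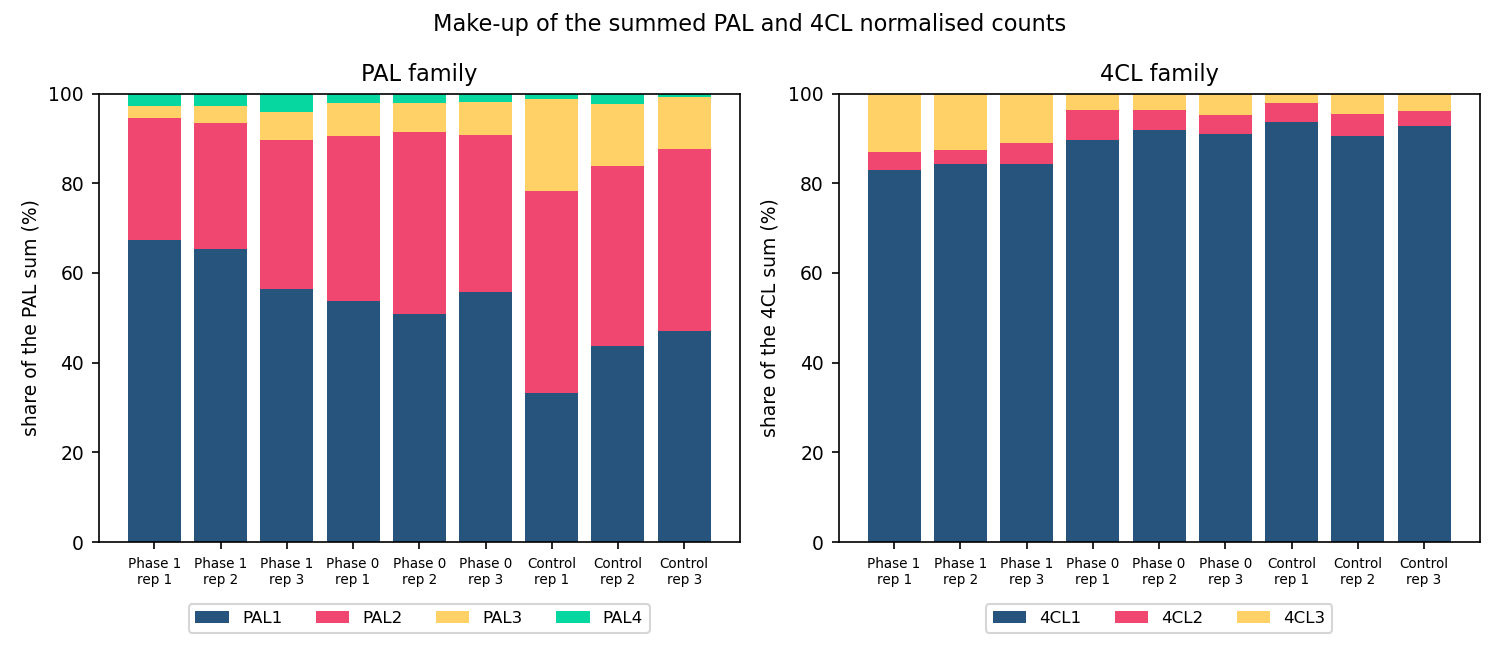
Share of each gene in the summed PAL (left) and 4CL (right) normalised counts of every library, in percent. PAL1 takes 56.5% to 67.4% of the PAL sum in Phase 1 libraries and 33.3% to 47.0% in Control libraries, and 4CL3 takes 11.1% to 13.1% of the 4CL sum in Phase 1 and 2.04% to 4.64% in Control.

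The genes around the entry steps were read from lists by role. Of 17 tested genes of the shikimate and phenylalanine pathway, which supply the substrate of PAL, 4 rose, 2 fell and 11 did not pass in Phase 1 against Control (median log2 fold change -0.069). CM1, a plastid chorismate mutase, rose 2.69-fold, SK2, a shikimate kinase, 1.63-fold, and ADT1, an arogenate dehydratase, by 0.70 on the log2 scale, while DHS2, which acts at the first shikimate step, fell by 0.74 on the log2 scale. The other fall, of ADT2, ended without any of 5 single libraries (adjusted p from 0.0525 to 0.121). In Phase 0 against Control 0 of the 17 passed in limma, and 1 had an unadjusted p under 0.05. Both counts of genes past the threshold come from the same fit, in which 36.1% (Phase 1) and 2.93% (Phase 0) of all genes passed. The share of all genes under an unadjusted p of 0.05 was not worked out.

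Downstream of coumaroyl-CoA, 2 branches and the sinapate esters were read in Phase 1 against Control, where 17.4% of all tested genes rose and 18.6% fell. All 6 tested flavonoid enzymes rose (median 2.76). Chalcone synthase (TT4), the first enzyme of that branch, had 7466, 6500 and 5246 normalised counts in Phase 1, 565, 915 and 978 in Phase 0, and 403, 773 and 1200 in Control. DFR and LDOX, enzymes of late anthocyanin steps, rose by 6.34 and 5.80 on the log2 scale, and TT7, a flavonoid hydroxylase, rose 5.20-fold. DFR had 1124, 293 and 258 normalised counts in Phase 1, 9, 10 and 30 in Phase 0, and 8, 2 and 5 in Control. LDOX had 886, 280 and 185 in Phase 1, 2, 12 and 23 in Phase 0, and 8, 5 and 4 in Control. Its mean over the Phase 0 and Control libraries together was below 10, so it was tested, and counted as a rise, only through Phase 1. Phase 1 replicate 1 was the highest library for DFR, LDOX and TT7. Without that library DFR rose by 5.66 (adjusted p = 0.000167) and LDOX by 5.14 (adjusted p = 0.00113) on the log2 scale. Of 10 monolignol enzymes 2 rose, 1 fell and 7 did not pass (median 0.23). CCR2, a cinnamoyl-CoA reductase, rose 8.04-fold, CAD4, a cinnamyl alcohol dehydrogenase, 1.59-fold, and FAH1, the ferulate hydroxylase, fell by 0.47 on the log2 scale. Of 4 sinapate ester enzymes UGT84A1 rose 4.09-fold, SNG1, the sinapoyl malate enzyme, fell by 1.06 on the log2 scale, and 2 did not pass. UGT84A1 had 38, 24 and 20 normalised counts in Phase 1, 6, 4 and 11 in Phase 0, and 4, 9 and 5 in Control. Its means in Phase 0 and Control were below 10, so it was tested, and counted as a rise, only through Phase 1. The difference between these lists was not tested. In Phase 0 against Control 0 of their 20 genes passed in limma, beside 2.93% of all tested genes. An unadjusted p under 0.05 was seen in 5, of which 4 were monolignol enzymes, all lower in Phase 0. The share of all tested genes under that unadjusted p was not worked out here, so this count and its direction are not read as a result about these lists. F3H, the 1 flavonoid enzyme below the filter, had 14, 2 and 6 normalised counts in Phase 1, 0, 0 and 2 in Phase 0, and was listed at 0 in Control.

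Partners and regulators of the entry enzymes were read in the same way. ATR2, a reductase that passes electrons to P450 enzymes such as C4H, rose 2.17-fold in Phase 1 against Control (adjusted p = 0.000589), and ATR1 did not pass. KFB20 and KFB01 encode F-box proteins that mark PAL enzymes for breakdown. KFB39 and KFB50, listed with them, were absent from the deposited table. KFB20 had 29, 21 and 92 normalised counts in Phase 1, 311, 321 and 155 in Phase 0, and 562, 298 and 631 in Control, and fell by 3.59 on the log2 scale in Phase 1 against Control (SE 0.51, adjusted p = 0.000466), and by 4.21 without Phase 1 replicate 3 (adjusted p = 8.96e-05). KFB01 fell by 1.12 (SE 0.33, adjusted p = 0.0249), a call that ended without Control replicate 1 or 3 or Phase 1 replicate 1 or 3 (adjusted p from 0.0656 to 0.0851). Both F-box genes tested thus fell, beside 18.6% of all tested genes. Of 11 listed MYB factors 7 were tested. MYB63, MYB85 and MYB90 were below the filter, and MYB58 was absent from the deposited table. Of the 7 tested, 5 rose and 2 did not pass, beside 17.4% of all tested genes that rose. Among the 5, the call of MYB7 ended without any of 7 single libraries (adjusted p from 0.0504 to 0.164). MYB75, an activator of anthocyanin genes, rose by 4.21 on the log2 scale, and MYB11 and MYB12, activators of flavonol genes, by 3.33 and 1.87. MYB75 had 3141, 897 and 716 normalised counts in Phase 1, and without Phase 1 replicate 1 it rose by 3.55 (adjusted p = 3.13e-05). MYB11 rose by 2.66 without Control replicate 1 (adjusted p = 0.00166). It had 53, 76 and 30 normalised counts in Phase 1, 7, 5 and 7 in Phase 0, and 1, 7 and 7 in Control. The means of MYB11 in Phase 0 and Control were below 10, so it was tested, and counted as a rise, only through Phase 1. MYB32, a relative of the C4H repressor MYB4, rose 3.30-fold. MYB4 itself had 353, 480 and 332 normalised counts in Phase 1, 321, 261 and 277 in Phase 0 and 316, 236 and 324 in Control, and did not pass.

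**Figure D4:**
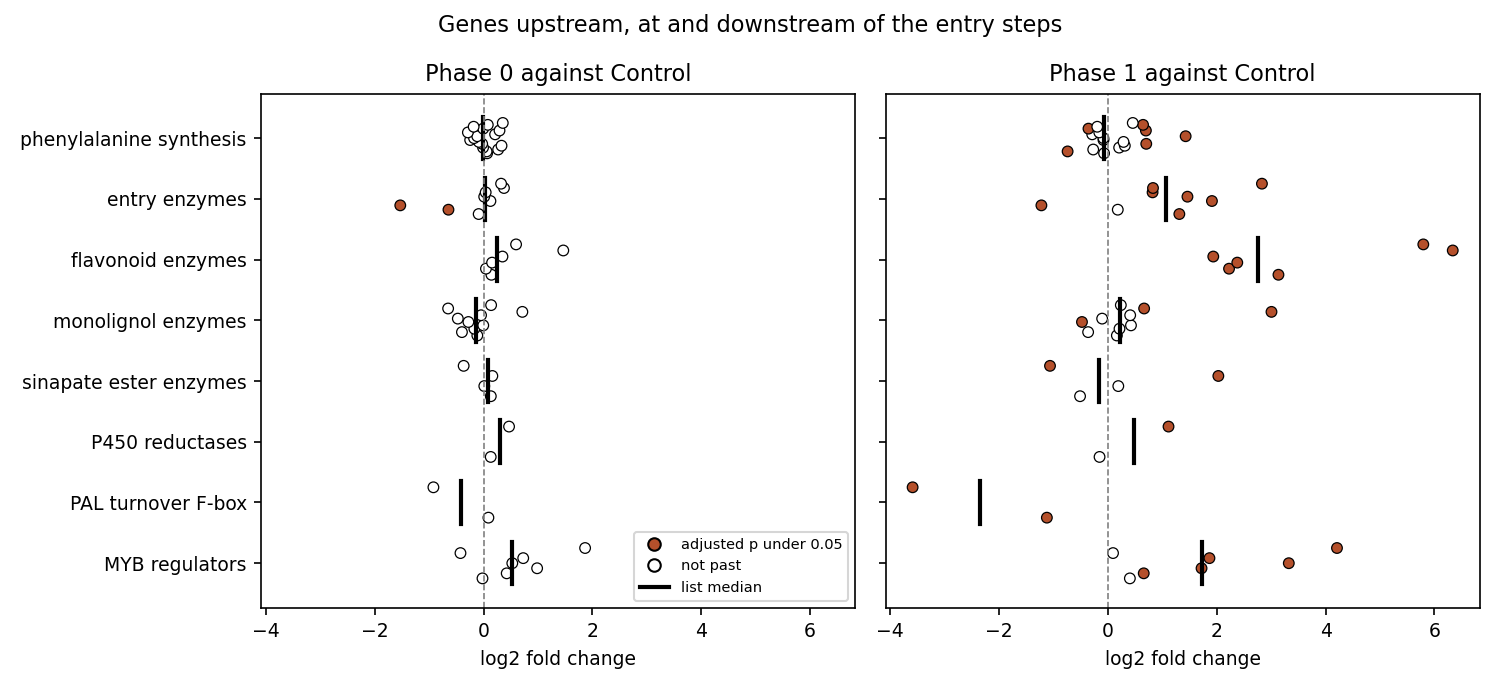
Fitted log2 fold changes of single genes (points, filled where the adjusted p is under 0.05) by list, with the list median (vertical mark), for Phase 0 and Phase 1 against Control. In Phase 0 the filled points are PAL2 and PAL3. In Phase 1 all 6 tested flavonoid enzymes are filled and lie right of 0, and both tested F-box genes are filled and lie left of 0. Of all tested genes 17.4% were higher and 18.6% lower in Phase 1 against Control.

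The 4 clock genes examined differed between Phase 1 and both other groups of libraries. LHY, a morning factor of the circadian clock, had 7626, 6097 and 5034 normalised counts in Phase 1, 56, 117 and 64 in Phase 0, and 100, 95 and 96 in Control. PRR5, an evening clock gene, had 24, 15 and 12 in Phase 1, 2362, 2035 and 2315 in Phase 0, and 1219, 1472 and 1646 in Control. TOC1, another evening gene, had 266, 288 and 191 in Phase 1, 2096, 2037 and 2072 in Phase 0, and 937, 1086 and 1005 in Control. Of the 4 clock genes examined, the fourth being the morning gene CCA1, all passed in Phase 1 against Control, beside 36.1% of all tested genes. They were added after their values were seen, so this count cannot be weighed against that share. In Phase 0 against Control TOC1 also rose 2.05-fold (adjusted p = 0.00754), while 2.93% of all tested genes passed. LHY (adjusted p = 0.461) and CCA1 (adjusted p = 0.986) did not pass there, and their Phase 0 and Control values overlapped. PRR5 lay higher in all Phase 0 libraries than in Control without passing (unadjusted p = 0.0162, adjusted p = 0.16). The part of the clock phase in the levels of the 8 genes was not tested. Summed over 8 markers of xylem and secondary walls, where lignin is laid down, the level was 1097 to 1340 in Phase 1, 819 to 973 in Phase 0 and 862 to 1411 in Control. In Phase 1 against Control 0 of the 8 passed in limma, and 1 had an unadjusted p under 0.05. In Phase 1 against Phase 0, 1 of the 8 rose, beside 13.7% of all tested genes. It was IRX9, with 60, 53 and 68 normalised counts in Phase 1, 27, 20 and 45 in Phase 0, and 26, 46 and 36 in Control. That call of IRX9 ended without any of 6 single libraries (adjusted p from 0.0564 to 0.147). In Phase 1 against Control 1 of 3 phloem markers rose and 1 fell, and of 3 epidermis markers 0 passed in limma and 1 had an unadjusted p under 0.05. Beside these xylem, phloem and epidermis counts, 17.4% of all tested genes rose and 18.6% fell in Phase 1 against Control, by adjusted p. The share under an unadjusted p of 0.05 was not worked out. In whole leaves fewer cells of a type and less RNA per cell cannot be told apart.

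The genes most like each member over the 9 libraries were sought among 6817 other genes with a symbol and a mean of at least 100. The closest on the log2 scale were CKX7 for PAL1 (Pearson r 0.976), SMT2 for PAL2 (0.962), LGT8 for PAL3 (0.954) and MTP11 for PAL4 (0.971). They were MIPS2 for C4H (0.993), SCL3 for 4CL1 (0.990), CHX20 for 4CL2 (0.960) and ABCB26 for 4CL3 (0.997). These values describe 9 libraries in 3 groups and rest largely on the group means. LGT8, for example, averaged 263 in Phase 1, 228 in Phase 0 and 870 in Control, and the means of PAL3 stood in the same order. Among the members themselves r was 0.966 for C4H and 4CL1 and 0.951 for C4H and 4CL3, and -0.32 for PAL1 and PAL3.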

How the data were processed

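The deposited table gives 1 score per gene and library in 9 libraries: read counts that the authors normalised per library and rounded, as far as the file's name and values show. Per the submitters' processing notes, FastQC, STAR 2.4.0a, Subread, featureCounts 1.4.5-p1, DESeq2 1.62 and the TAIR10 build were used. For each tool the role, and for the counting the strand setting and the gene filter, were not given in the sources used here. Per the labels' protocols the libraries were stranded, poly(A)-selected and read as single 75-base ends.

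Because the values are not raw counts, all 9 libraries were fitted in limma 3.58.1 under R 4.3.3, as 3 groups, with log2(value + 1) as the response and a mean-dependent prior variance. A gene was tested where its mean reached 10. The TMM scale factors (trimmed mean of M values) of 1 alternative were computed by a function written out for the purpose, and no count model was fitted. The members and lists were chosen with earlier results of these data known. The 4 clock genes, 4CL5 and AT1G51670 were added after their values were seen. All members are described. In each list up to 4 genes could be named, those past the threshold that changed most, and others are named only for a value shown.

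Gene models, transcript lengths and promoter windows came from RefSeq's TAIR10.1 annotation and genome, matched by locus, and all 8 members matched. The table itself carries locus identifiers and no coordinates. Coding sequences were aligned with Biopython 1.88, and exact tests run with scipy 1.17.1. Other settings are listed with their effects in the closing section.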

Additional observations from a re-analysis of the deposited data

Results flagged for a closer look

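For 6 of the 8 genes the change against Control differed between the 2 salt treatments, by the limma fit of that difference itself (Phase 1 against Phase 0). In that fit 28.1% of all tested genes passed, with 13.7% higher and 14.4% lower in Phase 1. On the log2 scale the Phase 1 effect exceeded the Phase 0 effect by 2.51 in 4CL3, 1.79 in PAL4, 1.45 in C4H, 1.404 in PAL1, 0.83 in PAL2 and 0.78 in 4CL1. All 3 Phase 1 libraries were above all 3 Phase 0 libraries in each of these 6 genes, as in 24.9% of all tested genes. Both effects are measured against the same 3 Control libraries, and the treatments differ in dose, time and mode of addition, which cannot be told apart. The labels give no hour of harvest, and the 4 clock genes examined also differed between Phase 1 and both other groups. The part of clock phase in these differences was not tested and cannot be told apart from the treatment here. With 3 libraries a group, no library was called an outlier or left out of the main fit. Fits without single libraries, and without Control replicate 1 and Phase 0 replicate 2 together, are described below.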

How the results depend on the processing

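Each comparison was refitted under 20 other settings. The log2 fold changes of PAL1, PAL3, PAL4, C4H, 4CL1 and 4CL3 in Phase 1 against Control kept their direction and stayed past the threshold in all 20, as did that of PAL3 in Phase 0 against Control (adjusted p of at most 0.0467 outside the array weights). The number of members called was 2 for Phase 0 against Control and 5 with array weights, PAL4 higher and PAL1, PAL2, PAL3 and 4CL1 lower. These weights gave Control replicate 3 a weight of 15.6 and Control replicate 1 one of 0.174, and their estimation stopped short of its tolerance. With them 8362 genes passed in Phase 0 against Control, 10373 in Phase 1 against Control and 8057 in Phase 1 against Phase 0, and without them 547, 6724 and 5249. Leaving out 1 library gave 1 to 2 members for Phase 0 against Control, 6 to 7 for Phase 1 against Control and 6 to 7 for Phase 1 against Phase 0. The same omissions gave 118 (without Phase 0 replicate 3) to 885 (without Control replicate 2) genes in all for Phase 0 against Control, and 213 with Control replicate 1 and Phase 0 replicate 2 both omitted. Phase 1 against Phase 0 gave 3378 genes without Phase 0 replicate 2.

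Small log2 fold changes of Phase 0 against Control turned sign under some settings, and of the values that turned 1 was called. With array weights that of C4H was -0.061 and that of 4CL1 -0.17 (adjusted p = 0.0414). With the 2 libraries named above both omitted, PAL4 had -0.0036 and 4CL3 -0.0084. Over the omissions of 1 library the values ran from -0.37 to 0.10 for PAL1, -0.11 to 0.55 for PAL4, -0.042 to 0.079 for C4H, -0.023 to 0.13 for 4CL1 and -0.094 to 0.55 for 4CL3. The ligase sum difference between Phase 0 and Control ranged from -23.5 to 253 normalised counts, with -12.3 without Control replicate 1. The 4CL3 share difference ranged from -0.24 to 1.06 percentage points, with -0.078 without both libraries named above. The cause was not tested.

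Replicate numbers did not pair the libraries: correlations of same-numbered libraries' deviations ran from -0.25 to 0.25, and the same number correlated best in 3 of 18 cases. With the replicate number as a block, 2, 7 and 6 members passed in the 3 comparisons, as without it, and 372 genes in all for Phase 0 against Control. Low counts outside Phase 1, 35 to 89 in PAL4, 90 to 190 in 4CL2 and 45 to 114 in 4CL3, limit how small a change could be seen. Leaving out 1 library for the other genes was added after the data were seen.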
